A study of Rattus norvegicus with 16 samples.

Results

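The genes described here carry nucleosides across membranes and make, salvage or break down the purines adenosine and inosine. They were chosen by symbol from a list of 8, Slc29a1, Slc29a3, Slc29a4, Adk, Ada, Nt5e, Xdh and Pnp. The choice was made with earlier results of these data known. Of these 8, 7 were measured among the 13222 genes of the table, and Slc29a4 was not analysed here. RNA was sequenced from sieved glomeruli, the filtering units of the kidney, of 16 male Wistar rats of about 175 g, with 4 rats in each of 4 groups, killed on day 11. Control rats were labelled healthy. PAN rats had received puromycin aminonucleoside, a toxin that injures podocytes and causes nephrotic syndrome, by intravenous injection. The remaining groups had PAN plus daily gavage of either pioglitazone, a drug that activates the nuclear receptor PPARγ, or GQ-16, a partial agonist of the same receptor. The labels give no dose, age, litter or batch, and they do not say which rats had the vehicle gavage. Only the labels say that the libraries are from separate rats; if they were not, p-values would measure technical spread. Rats are numbered 1 to 4 within a group only to name them, and nothing pairs rats across groups.

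PAN is itself a purine nucleoside, built like adenosine, so the proteins that handle adenosine bear on how cells meet the toxin. Slc29a4 encodes the transporter reported as the uptake route of PAN into podocytes. Slc29a1 encodes ENT1, an equilibrative nucleoside transporter of the plasma membrane, and Slc29a3 encodes ENT3, its relative in lysosomes and other internal membranes. Outside the cell, the Nt5e product CD73 turns AMP into adenosine. Inside, Adk phosphorylates adenosine back to AMP, Ada deaminates it to inosine, Pnp splits inosine to hypoxanthine, and Xdh oxidises hypoxanthine to xanthine and uric acid.

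Libraries held 13351137 to 21977663 reads in the listed genes. Values are CPM, each gene's reads scaled to a common library total, and 3 reads, taken as the detection floor, are worth 0.137 to 0.225 CPM. Every member lay far above that floor, with the fewest reads, 211 to 613 per library, for Nt5e. CPM is not corrected for gene length, so levels are compared between rats and never between genes. Some libraries stood apart. The 21 mitochondrial genes took 13.9% to 39.6% of reads in controls and 5.98% to 10.8% in PAN, with the highest control shares in rats 2 and 3. The podocyte score, the mean log2(CPM + 1) of 18 podocyte markers such as Podxl, ran from 6.33 to 8.64 in controls and from 8.31 to 8.74 in PAN. The tubule score, over 22 tubule markers such as Slc34a1 and Umod, ran from 7.65 to 8.19 in controls. It was 6.66 to 7.93 in PAN rats, 6.81 to 7.85 after pioglitazone and 7.19 to 8.0 after GQ-16. Podocyte and endothelial markers were thus present in every library, and so were tubule markers, in a tissue labelled as glomeruli. In bulk tissue, fewer cells of a type and less RNA per cell cannot be told apart. Numbers in the library titles were 25 or higher for 3 of 4 PAN rats, 0 of 4 controls and 1 of 4 rats in each drug group, and the labels do not say what the numbers mean.

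The stretches just upstream of the gene starts are shown for 4 members because these genes fell into opposite patterns across rats, described below. Each is the 150 bases before the start in RefSeq's rat assembly GRCr8, written 5′ to 3′ on the gene's strand. All 7 of 7 measured members matched that table. Capitals mark GGGCGG, the letters of a GC box, or their reverse complement. In Pnp the capitals mark TATAAA, searched on the gene's strand alone. Slc29a1 lies at chr9:22896949-22897098 on the plus strand, Ada at chr3:172842284-172842433 on the minus strand, Pnp at chr15:26643997-26644146 on the plus strand and Nt5e at chr8:98150775-98150924 on the plus strand.
Slc29a1: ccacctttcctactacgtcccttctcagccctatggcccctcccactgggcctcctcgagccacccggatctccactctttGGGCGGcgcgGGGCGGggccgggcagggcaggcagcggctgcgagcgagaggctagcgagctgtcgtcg
Ada: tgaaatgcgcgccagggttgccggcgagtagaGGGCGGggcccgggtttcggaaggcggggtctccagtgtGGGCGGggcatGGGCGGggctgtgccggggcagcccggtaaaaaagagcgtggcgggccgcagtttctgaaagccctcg
Pnp: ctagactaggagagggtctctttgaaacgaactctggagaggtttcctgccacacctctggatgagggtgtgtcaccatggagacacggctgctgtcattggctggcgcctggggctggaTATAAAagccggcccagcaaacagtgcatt
Nt5e: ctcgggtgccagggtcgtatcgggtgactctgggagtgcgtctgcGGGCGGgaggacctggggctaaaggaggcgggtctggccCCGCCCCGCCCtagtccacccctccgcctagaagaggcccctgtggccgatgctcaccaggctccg
GGGCGG occurred 2 times before Slc29a1, 3 times before Ada and 3 times before Nt5e, and it occurred 4 times before Slc29a3 and 4 times before Adk. Before Pnp and Xdh it occurred 0 times. The 150 bases before Pnp held TATAAA, with its first base 30 bases before the start. Of 33469 rat promoters of this length, GGGCGG, counted with overlaps, was in 26% and TATAAA in 5.15%. A further search, for AGGTCA, letters that many nuclear receptors bind, on both strands, found it in 0 of the 7 stretches and in 8.76% of all promoters. A match of letters is a description of the sequence and not a binding site, and these letters did not separate the patterns described below.

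Slc29a1, the plasma membrane transporter, had its highest group means in PAN rats and in PAN rats given pioglitazone. Control rats had 129, 173, 180 and 166 CPM, and PAN rats had 246, 306, 349 and 139 CPM. With pioglitazone the values were 311, 311, 187 and 277 CPM, and with GQ-16 they were 156, 228, 171 and 123 CPM. PAN rats 1 to 3 lay above every control rat, and PAN rat 4 lay below 3 of the 4 controls. Group means in rising order were 162 ± 22.8 CPM in controls, 169 ± 43.8 with GQ-16, 260 ± 91.3 in PAN and 271 ± 58.2 with pioglitazone (SD, n = 4). The first pair and the last pair of that order differed by less than their spread.

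Slc29a3, the transporter of internal membranes, varied within groups as much as between them. It had 105, 56.1, 90.2 and 85.7 CPM in controls and 63.8, 69.3, 71.8 and 110 CPM in PAN. With pioglitazone it had 45.1, 62.9, 96.9 and 48.9 CPM, and with GQ-16 87.9, 51.0, 81.1 and 51.0 CPM. All 4 groups overlapped, and PAN rat 4, low for Slc29a1, was the highest of the 16 for Slc29a3. Means were 63.4 ± 23.6 CPM with pioglitazone, 67.7 ± 19.5 with GQ-16, 78.7 ± 21.0 in PAN and 84.2 ± 20.4 in controls (SD, n = 4), and no neighbours in this order differed beyond their spread.

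Nt5e, the ectoenzyme that makes adenosine outside cells, followed the rats in the manner of Slc29a3. Controls had 38.5, 21.6, 30.4 and 31.9 CPM and PAN rats had 16.2, 23.3, 22.1 and 37.4 CPM. Pioglitazone rats had 12.1, 20.0, 32.4 and 16.9 CPM and GQ-16 rats 30.5, 15.8, 24.9 and 15.3 CPM. Groups overlapped throughout, with PAN rat 4 and pioglitazone rat 3 again the highest of their groups. Means were 20.4 ± 8.69 CPM with pioglitazone, 21.6 ± 7.34 with GQ-16, 24.8 ± 8.98 in PAN and 30.6 ± 6.95 in controls (SD, n = 4), each within the spread of its neighbour.

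Adk, the kinase that returns adenosine to AMP, had nearly equal group means. Its values were 68.6, 43.6, 58.3 and 55.8 CPM in controls and 32.5, 49.2, 50.1 and 74.9 CPM in PAN. They were 39.3, 52.4, 75.3 and 36.9 CPM with pioglitazone and 70, 36.6, 57.1 and 51.5 CPM with GQ-16. Means ran from 51.0 ± 17.6 CPM with pioglitazone through 51.7 ± 17.5 in PAN and 53.8 ± 13.8 with GQ-16 to 56.6 ± 10.3 in controls (SD, n = 4), so that the rats within a group differed far more than the groups.

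Ada, the deaminase, was the most variable of the 7 in its group comparisons, with the widest intervals. Controls had 46.4, 185, 128 and 140 CPM and PAN rats 145, 251, 189 and 90.5 CPM. Pioglitazone rats had 231, 270, 116 and 165 CPM and GQ-16 rats 65.6, 176, 113 and 51.0 CPM. Control rat 1 had the lowest value of the 16 and pioglitazone rat 2 the highest. Means in rising order were 101 ± 56.3 CPM with GQ-16, 125 ± 57.8 in controls, 169 ± 68.2 in PAN and 195 ± 68.3 with pioglitazone (SD, n = 4), and neighbours lay within their spread.

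Pnp, the phosphorylase that splits inosine and guanosine, showed the same order of PAN and pioglitazone above the others. Controls had 300, 269, 315 and 409 CPM and PAN rats 481, 372, 388 and 320 CPM. Pioglitazone rats had 513, 459, 315 and 476 CPM and GQ-16 rats 341, 372, 330 and 327 CPM. All pioglitazone rats but rat 3 exceeded every control rat. Means were 323 ± 60.2 CPM in controls, 342 ± 20.9 with GQ-16, 390 ± 67.0 in PAN and 441 ± 86.6 with pioglitazone (SD, n = 4), without a gap between neighbours larger than their spread.

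Xdh, the last enzyme on the way to uric acid, was lowest in the rats given a drug. It had 198, 163, 198 and 227 CPM in controls and 217, 146, 160 and 203 CPM in PAN. With pioglitazone it had 135, 154, 185 and 117 CPM, and with GQ-16 145, 106, 136 and 182 CPM. Means were 142 ± 31 CPM with GQ-16, 148 ± 29.1 with pioglitazone, 181 ± 33.6 in PAN and 196 ± 26.1 in controls (SD, n = 4). The pioglitazone and GQ-16 rats overlapped the controls through their highest rats, 185 and 182 CPM. After median-ratio scaling they did not: the lowest control was at 192 CPM, above the highest rat with pioglitazone, 176 CPM, with GQ-16, 167 CPM, and in PAN, 191 CPM. The share of all genes without overlap under that scaling is not given here.

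**Figure D1:**
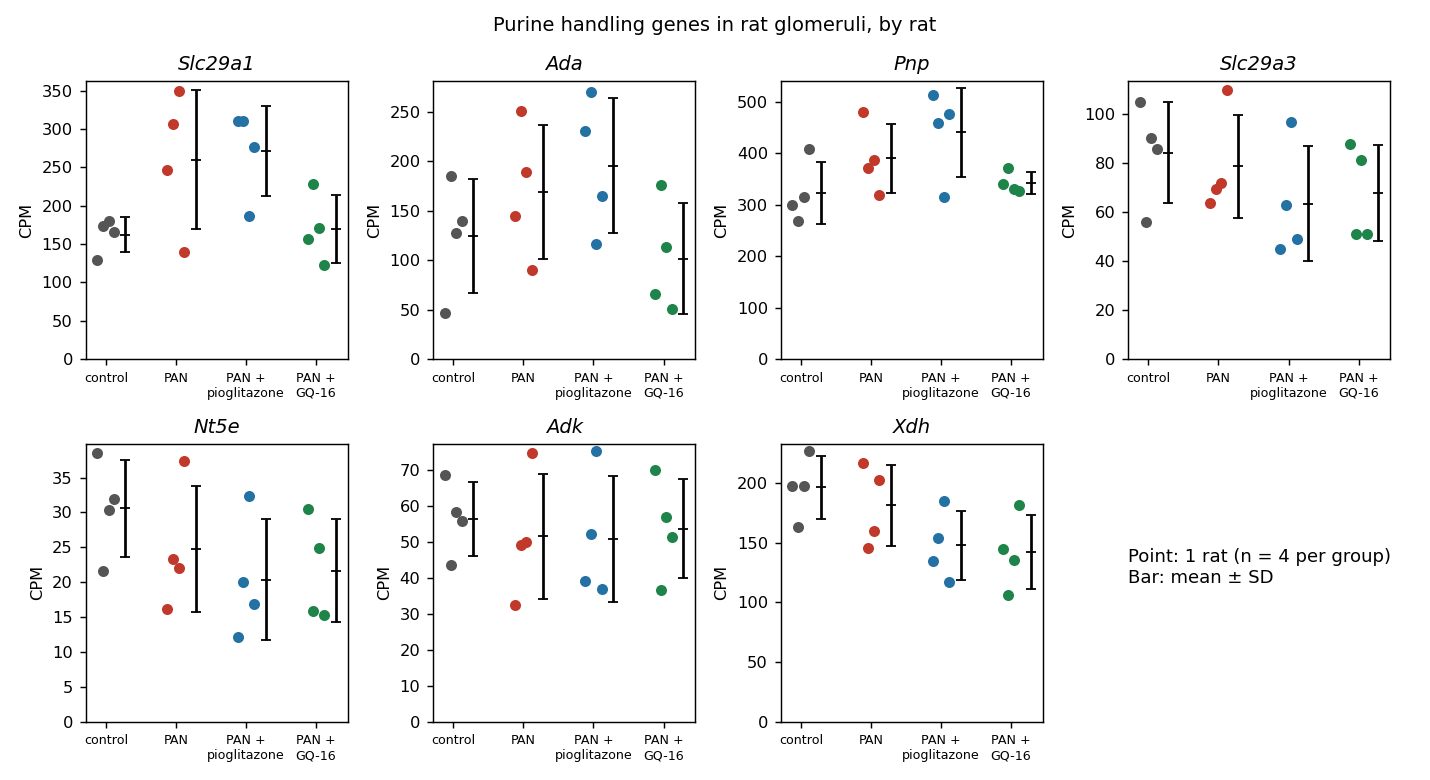
Level of each measured member in CPM (linear axis from 0) for every rat, by group, with points for single rats and bars for mean ± SD (n = 4). Slc29a1 reaches 246 to 349 CPM in 3 PAN rats against 129 to 180 CPM in controls, while PAN rat 4 has 139 CPM.

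The comparison of PAN with control rats asks which of these genes differ with the injury. With limma on log2(CPM + 1) and Benjamini-Hochberg adjustment over all 13222 genes, 0 of 7 members passed an adjusted p of 0.05, where 22.3% of all genes did. The voom fit of limma, here and below made with median-ratio scaling, also called 0. At an unadjusted p under 0.05 there was 1 member, Slc29a1, against 42.1% of all genes. Slc29a1 was higher by 0.61 in PAN on the log2 scale (95% interval 0.062 to 1.16, limma adjusted p = 0.0893). Under median-ratio scaling, which sets the median gene's change near 0, its difference was 0.31 (adjusted p = 0.528 by limma). Leaving out PAN rat 4 gave 0.89 with an adjusted p of 0.0142 by limma, which made it the 1 member called. The share of all genes called in that fit is not given here. Without rat 4 all PAN rats have title numbers of 25 or higher and all controls 10 or lower, so that PAN and title number cannot be told apart. With all rats and the title number as a covariate, the Slc29a1 difference was 0.46 (limma adjusted p = 0.456). Ada differed by 0.50 (interval -0.44 to 1.44) and Pnp by 0.27 (-0.092 to 0.64). Over the alternatives the Ada value ran from -0.025, with median-ratio scaling and the tubule score as a covariate, to 1.32, with the podocyte score as a covariate, and it was 0.084 without control rat 1. The remaining differences were -0.33 for Nt5e (-0.96 to 0.30), -0.17 for Adk (-0.72 to 0.38), -0.12 for Xdh (-0.51 to 0.26) and -0.095 for Slc29a3 (-0.65 to 0.46). On leaving out 1 rat, Nt5e ran from -0.54 to -0.15 and Xdh from -0.21 to -0.026. Under median-ratio scaling Ada was at 0.20 and Pnp turned to -0.028, while Nt5e was at -0.62, Adk at -0.47, Xdh at -0.42 and Slc29a3 at -0.39, with 0 of these 6 called, where 8.63% of all genes were. Xdh, whose PAN and control rats then did not overlap, replaced Slc29a1 as the 1 member at an unadjusted p under 0.05, against 26.6% of all genes. Its highest PAN rat, 191 CPM, lay next to the lowest control, 192 CPM, and the share of all genes without overlap under that scaling is not given here. The members' median difference was -0.0945, beside 0.28 over all genes. Without that scaling, groups did not overlap for 0 of 7 members, against 23.3% of all genes.

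Adding pioglitazone to PAN moved no member past the threshold. 0 of 7 members were called by limma, where 0% of all genes were, and 0 had an unadjusted p under 0.05, against 3.74% of all genes. The voom fit called 0 as well. Xdh differed by -0.30 (95% interval -0.69 to 0.09), Slc29a3 by -0.34 (-0.90 to 0.22), Slc29a1 by 0.11 (-0.44 to 0.66) and Adk by -0.016 (-0.57 to 0.54), or 0.065 with median-ratio scaling. Adjusted p-values lay between 0.916 and 0.989 by limma. The intervals are wide, so the absence of a call does not show equal levels.

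With GQ-16 added to PAN, limma called 0 of 7 members, where 0.0151% of all genes were called, and voom called 0. At an unadjusted p under 0.05 there was 1 member, Slc29a1, against 8.27% of all genes. Its difference was -0.57 (95% interval -1.12 to -0.02, limma adjusted p = 0.586), or -0.44 (-1.10 to 0.21) with median-ratio scaling, under which 0 members had an unadjusted p under 0.05, against 6.91% of all genes. Ada differed by -0.80 (-1.74 to 0.14) and Xdh by -0.36 (-0.75 to 0.03), neither past the threshold. Both drugs were compared with the same 4 PAN rats, which also entered the comparison with controls, so PAN rat 4 enters each of these values.

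Set against healthy controls, rats given PAN and pioglitazone had the most members at a low unadjusted p. limma called 0 of 7, where 4.98% of all genes were called, and voom called 0. Unadjusted p was under 0.05 for 3 members, Slc29a1, Xdh and Pnp, against 28.5% of all genes. Slc29a1 was higher by 0.72 (95% interval 0.18 to 1.27, limma adjusted p = 0.102), Pnp by 0.44 (0.075 to 0.81, adjusted p = 0.126), and Xdh was lower, at -0.42 (-0.81 to -0.033, adjusted p = 0.152). The lowest pioglitazone rat for Slc29a1, 187 CPM, lay above the highest control, 180 CPM, so 1 of 7 members did not overlap, against 14.1% of all genes. Under median-ratio scaling Xdh was at -0.64 with a limma adjusted p of 0.0487, and quantile normalization gave -0.66 with 0.036, so that Xdh was then the 1 member called, where 2.84% and 2.90% of all genes were. The same median-ratio scaling put Slc29a1 at 0.51 (limma adjusted p = 0.357), with overlapping groups, and Pnp at 0.22 (limma adjusted p = 0.492). It took Nt5e from -0.62 (-1.25 to 0.01) to -0.83 (limma adjusted p = 0.127) and Slc29a3 from -0.43 (-0.99 to 0.12) to -0.65 (limma adjusted p = 0.163). Under that scaling the 3 members at an unadjusted p under 0.05 were Xdh, Nt5e and Slc29a3, against 20.7% of all genes.

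GQ-16 rats had less Xdh than controls by mean, at an unadjusted p under 0.05. limma called 0 of 7, where 0.151% of all genes were called, and voom called 0. The 1 member with an unadjusted p under 0.05 compares with 23.9% of all genes. Xdh was at -0.48 (95% interval -0.87 to -0.093, limma adjusted p = 0.148), and at -0.66 with an adjusted p of 0.0586 under median-ratio scaling. Nt5e was at -0.51 (-1.14 to 0.12), or -0.68 (-1.30 to -0.061) with that scaling, under which 2 members, Xdh and Nt5e, had an unadjusted p under 0.05, against 24% of all genes. Slc29a1 was at 0.042 (-0.51 to 0.59), or -0.13 with median-ratio scaling.

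Between the drugs, GQ-16 rats had lower Slc29a1 and Ada means than pioglitazone rats, without a call. limma called 0 of 7 members, where 0% of all genes were called, and voom called 0. The 2 members with an unadjusted p under 0.05 compare with 5.94% of all genes. Slc29a1 was at -0.68 (95% interval -1.23 to -0.13, limma adjusted p = 0.725) and Ada at -1.03 (-1.98 to -0.088, adjusted p = 0.783). Median-ratio scaling gave -0.64 (-1.30 to 0.017) and -0.99 (-2.10 to 0.13), and 0 members at an unadjusted p under 0.05, against 7.25% of all genes. For Pnp the difference was -0.34 (-0.71 to 0.024), and for Xdh -0.06 (-0.45 to 0.33). GQ-16 rat 2 had 228 CPM of Slc29a1, above pioglitazone rat 3 at 187 CPM, so the groups overlapped. No dose is given for either drug.

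**Figure D2:**
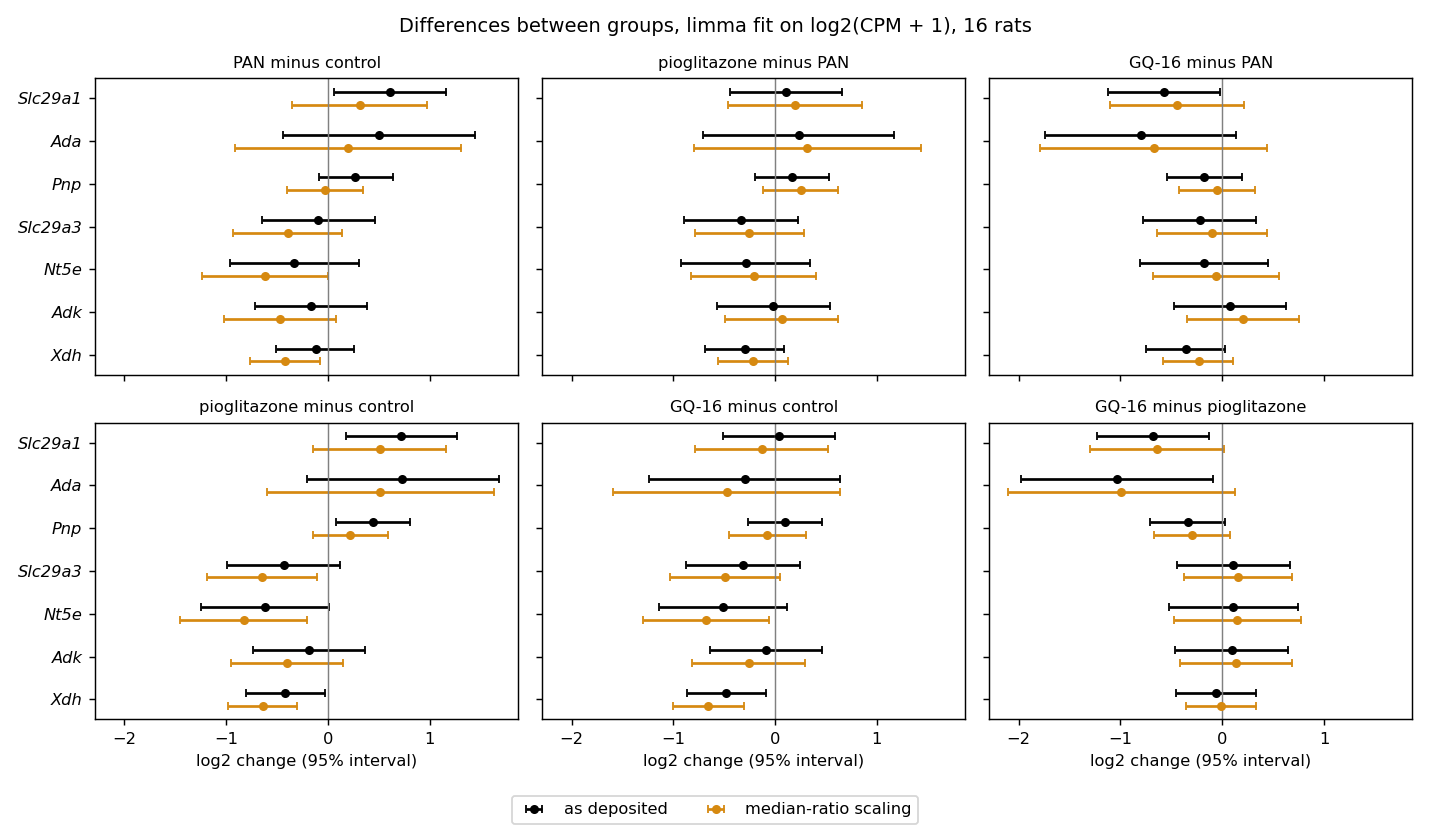
Log2 change of each member with its 95% interval in the 6 comparisons, from the limma fit on log2(CPM + 1), for the deposited scaling and for median-ratio scaling. Most intervals cross 0, and Slc29a1 in PAN minus control moves from 0.61 to 0.31 between the scalings.

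Across the 16 rats the members fell into opposite patterns, within groups as well as across them. Slc29a3 and Nt5e had a Pearson correlation of 0.96, Adk and Nt5e 0.86 and Slc29a3 and Adk 0.85. Slc29a1 and Ada had 0.86, Slc29a1 and Pnp 0.72, and Ada and Pnp 0.54. Within groups, after removing group means, these pairs had 0.96, 0.92, 0.90, 0.83, 0.53 and 0.36 in the same order. Between the patterns the correlations were negative, from -0.61 for Nt5e and Pnp to -0.45 for Ada and Nt5e. Xdh was counted in neither pattern, with 0.42 to 0.59 against Slc29a3, Adk and Nt5e and -0.46 to -0.25 against Slc29a1, Ada and Pnp. These are descriptions over 16 libraries that share depth and tissue composition.

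The first pattern tracked the tubule score. Nt5e had r = 0.92 and rho = 0.89 with it (permutation p = 1e-05, the smallest 100000 draws can give, and 5e-05; adjusted 0.00021 and 0.001 over 21 relations). Adk had r = 0.86 and rho = 0.81 (permutation p = 2e-05 and 0.00018, adjusted 0.00021 and 0.0013), and Slc29a3 r = 0.84 and rho = 0.85 (permutation p = 9e-05 and 0.00016, adjusted 0.00052 and 0.0013). Without the 2 rats farthest from the median score r was 0.92, 0.79 and 0.89, and within groups, after removing group means, it was 0.94, 0.94 and 0.88. For Pnp r was -0.78 and rho -0.75 (permutation p = 0.00051 and 0.0014, adjusted 0.0018 and 0.0043), with -0.65 without the farthest 2 rats and -0.68 within groups. Slc29a1 had r = -0.63 and rho = -0.64 (permutation p = 0.011 and 0.0084, adjusted 0.021 and 0.018), with -0.58 and -0.48 in the same order. Ada had r = -0.50 and rho = -0.60 (permutation p = 0.05 and 0.017, adjusted 0.088 and 0.03), with -0.48 and -0.42. Xdh had r = 0.40 and rho = 0.39 (permutation p = 0.13 and 0.13, adjusted 0.21 and 0.21), with r = 0.66 without the farthest 2 rats and 0.22 within groups. The part of tubule RNA in the members' values was not tested. With the tubule score as a covariate the PAN minus control difference of Slc29a3 turned from -0.095 to 0.35, of Adk from -0.17 to 0.31 and of Nt5e from -0.33 to 0.22. The same covariate took Slc29a1 from 0.61 to 0.37 and Pnp from 0.27 to 0.072, and in pioglitazone against control Slc29a1 from 0.72 to 0.38 and Pnp from 0.44 to 0.15.

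The second pattern tracked the endothelial score, the mean over 9 endothelial markers such as Kdr and Eng, a score chosen after the members' values were seen. This score tended to fall where the tubule score rose, so the relations with the 2 scores are not separate results. Pioglitazone rat 1 had the highest endothelial score, 9.989, with a tubule score of 6.814. Control rat 1 had the highest tubule score, 8.185, with an endothelial score of 9.165. Pnp had r = 0.82 and rho = 0.79 with it (permutation p = 0.0001 and 0.00055), Slc29a1 r = 0.77 and rho = 0.77 (permutation p = 0.00032 and 0.00071), and Ada r = 0.71 and rho = 0.78 (permutation p = 0.002 and 0.00051). Adjusted over the 21 relations, these p-values were at most 0.0059, an adjustment that does not cover the late choice of the score. In all 21 relations rats were shuffled across groups, so differences between groups enter the permutation p. Within groups r was 0.79, 0.74 and 0.62, and without the 2 farthest rats 0.77, 0.75 and 0.71. Nt5e, Slc29a3 and Adk went the other way, with r of -0.68, -0.65 and -0.65 and rho of -0.62, -0.64 and -0.65 (permutation p between 0.0035 and 0.013, adjusted at most 0.024). Without the 2 farthest rats these r were -0.46, -0.46 and -0.57. Xdh had r = -0.27 and rho = -0.23 (permutation p = 0.31 and 0.39). With the podocyte score Ada had the strongest relation, r = -0.37 and rho = -0.39 (permutation p = 0.16 and 0.14), and the other 6 members had permutation p of 0.46 or more. Within groups the podocyte r was -0.67 for Ada and -0.45 for Slc29a1, and between -0.11 and 0.38 for the other 5. Summed endothelial markers spanned 6336 to 8922 CPM in controls, 5749 to 8905 in PAN, 6525 to 11843 with pioglitazone and 5974 to 7725 with GQ-16. The endothelial share of the members' values was not tested.

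**Figure D3:**
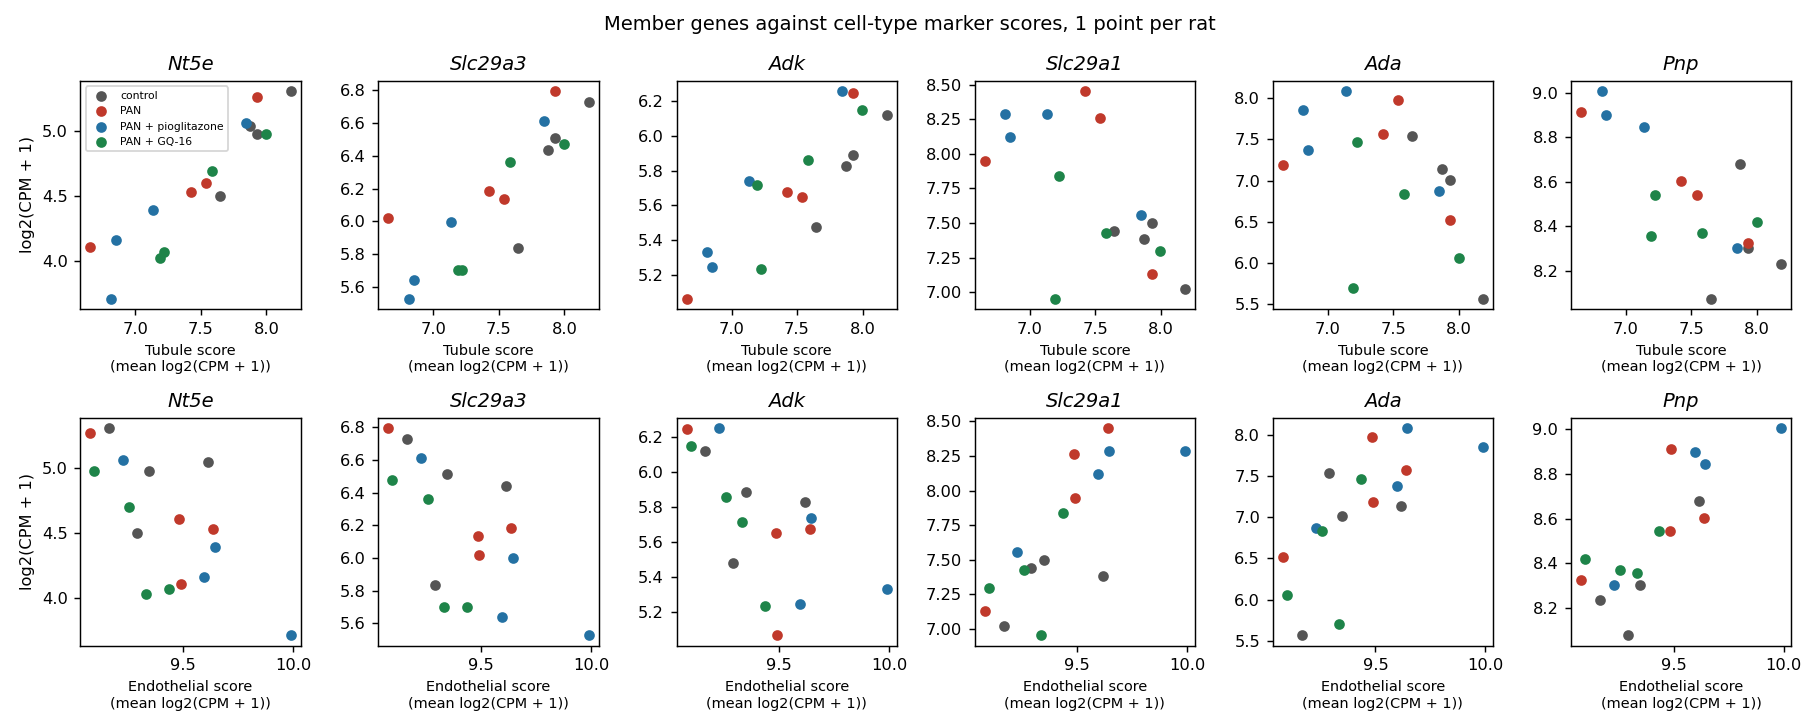
Log2(CPM + 1) of 6 members against the tubule score (upper row) and the endothelial score (lower row), 1 point per rat, coloured by group. Nt5e rises along the tubule score (r = 0.92) and Pnp along the endothelial score (r = 0.82).

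The genes most like each member were named by a rule, the 3 highest Pearson correlations of log2(CPM + 1) over the 16 libraries. For Slc29a1 they were Cd93 (0.92), Samd11 (0.92) and Cd34 (0.90), and for Ada Slc29a1 (0.86), Sox7 (0.86) and Samd11 (0.83). Slc29a3 was most like Got2, Cluh and Xylb, each at 0.97, and Nt5e most like Pyroxd2, Napsa and Spink1l, each at 0.97. Adk had Asrgl1 (0.99), Acadm (0.98) and Iyd (0.98), and Pnp had Rftn1 (0.93), Pgm2 (0.93) and Cmtm3 (0.92). Xdh had Tmem252 (0.87), Vnn1 (0.85) and Esrp2 (0.85), and under median-ratio scaling its link with Tmem252 was 0.73.

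Beside the members, 67 other genes of nucleotide handling were taken from lists of genes named by function. In PAN against control, 17 of these rose and 1 fell by limma, or 26.9% called and 25.4% higher, where 21.7% of all genes were higher and 0.522% lower. Their median change was 0.24, beside 0.28 for all genes. Under median-ratio scaling, which removes that shift of all genes, 6 rose and 1 fell, and all 7 were among the 18, while 7.12% of all genes rose and 1.51% fell. With the title number of 25 or higher as a covariate, 3 rose and 0 fell, namely Tk1, P2rx1 and Ampd2. With the podocyte score as a covariate 5 rose and 0 fell, and the 5, Mtap, P2rx1, Ampd2, Impdh2 and Tk1, were among the 18. With the tubule score as a covariate 17 were called, of which 10 were among the 18. A fit to the PAN and control rats alone gave 8 that rose and 0 that fell. Leaving out control rat 2 gave 7 that rose, control rat 3 gave 6, PAN rat 1 gave 6, PAN rat 2 gave 9 and PAN rat 3 gave 10, and leaving out control rat 1 gave 26. Without both control rats of highest mitochondrial share, rats 2 and 3, 1 gene rose, P2rx1. The shares of all genes called in these covariate and leave-out fits and the fit to PAN and control rats are not given here. A change in these counts is thus not told apart from a change over the whole table.

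Salvage enzymes, which recover bases and nucleosides, held 6 of 11 measured others that rose and 0 that fell, where 21.7% of all genes rose. Under median-ratio scaling 2 of the 11 rose, Tk1 and Mtap, beside 7.12% of all genes. Tk1, thymidine kinase of dividing cells, went from 7.51 ± 1.45 CPM in controls to 22.2 ± 3.76 in PAN rats (SD, n = 4). Its log2 difference was 1.45 (SE 0.27; adjusted p = 0.00248, limma), or 1.18 with median-ratio scaling. Uck2, a uridine and cytidine kinase, rose by 1.0 and Uckl1, its relative, by 0.52, with limma adjusted p of 0.0412 and 0.0384, and neither passed under median-ratio scaling. Mtap, which cleaves methylthioadenosine, rose from 11.8 ± 2.91 to 20.0 ± 1.47 CPM (SD, n = 4), by 0.74 (adjusted p = 0.00417 by limma).

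Among receptors of adenosine and nucleotides, 4 of 8 rose and 0 fell, where 21.7% of all genes rose. Under median-ratio scaling 1 of the 8 rose, P2rx1, beside the same 7.12%. P2rx1, an ATP-gated channel, went from 5.26 ± 1.0 to 13.7 ± 3.03 CPM (SD, n = 4). Its log2 difference was 1.23 (SE 0.17; adjusted p = 0.000657, limma), or 0.97 with median-ratio scaling. P2ry6, a receptor for UDP, rose by 1.12, Adora2a, the adenosine A2a receptor, by 0.78 and P2rx4, another ATP-gated channel, by 0.67, each with a limma adjusted p between 0.0215 and 0.036. None of these last 3 passed under median-ratio scaling. Macrophage markers such as Lyz2 and Csf1r summed to 251 to 394 CPM in controls and 376 to 1107 in PAN, with 7 of 9 higher by limma, and mesangial and smooth muscle markers such as Pdgfrb and Itga8 to 267 to 677 and 1043 to 1843 CPM, with 7 of 8 higher. Their part in these rises was not tested.

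De novo synthesis enzymes, which build purines from small precursors, had 4 of 12 that rose and 0 that fell, or 2 of 12 that rose under median-ratio scaling, beside 21.7% and 7.12% of all genes. Impdh2, which makes guanine nucleotides, rose from 40.7 ± 6.66 to 63.4 ± 9.39 CPM and Pfas from 35.6 ± 6.39 to 54.4 ± 5.09 (SD, n = 4), by 0.63 and 0.61 on the log2 scale, or 0.34 and 0.31 with median-ratio scaling, where both still passed. Adsl and Paics rose by 0.37 and 0.33 with limma adjusted p of 0.0453 and 0.0397, and were at 0.07 and 0.04 under median-ratio scaling. The deaminases and intracellular nucleotidases had 1 of 9 that rose, below the 21.7% of all genes, Ampd2, the AMP deaminase, from 58.5 ± 13.9 to 127 ± 18.3 CPM (SD, n = 4), by 1.13 (SE 0.19, limma adjusted p = 0.00147). Likewise below that share, the list named for ectonucleotidases, which is wider than that class, had 1 of 8, Entpd1, by 0.55. The end-product and urate genes had 1 of 6, also below it, Gda, guanine deaminase, by 0.77. Under median-ratio scaling neither passed, with Entpd1 at 0.25 and Gda at 0.51 (limma adjusted p = 0.389 and 0.195), while Ampd2 passed at 0.83. Of 7 genes of S-adenosylmethionine and polyamine use, 0 passed in either direction by limma, where 22.3% of all genes did. Of these 7, 2 were at an unadjusted p under 0.05, below the share of all genes, 42.1%.

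Of the other nucleoside transporters, 1 of 3 fell, where 0.522% of all genes did, or 1.51% under median-ratio scaling. Slc28a3, a concentrative transporter, went from 4.24 ± 1.13 to 2.29 ± 0.688 CPM (SD, n = 4). Its log2 difference was -0.67 (SE 0.20; adjusted p = 0.032, limma), or -0.90 with median-ratio scaling. The call held in 8 of 19 alternatives, where the difference was -1.20 to -0.77, among them quantile normalization and the tubule score as a covariate. It was lost in the other 11, where the difference was -0.96 to -0.44. These were the title number or the podocyte score as a covariate, median-ratio scaling with the tubule score, the fit to PAN and control rats alone, and leaving out control rats 2 and 3 together or any 1 of control rats 2, 3 and 4 and PAN rats 1, 2 and 4. Organic cation transporters, 3 of them, had 0 calls by limma, where 22.3% of all genes were called. At an unadjusted p under 0.05 they had 0 as well, against 42.1% of all genes, and 3 genes are too few to set against these shares.

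**Figure D4:**
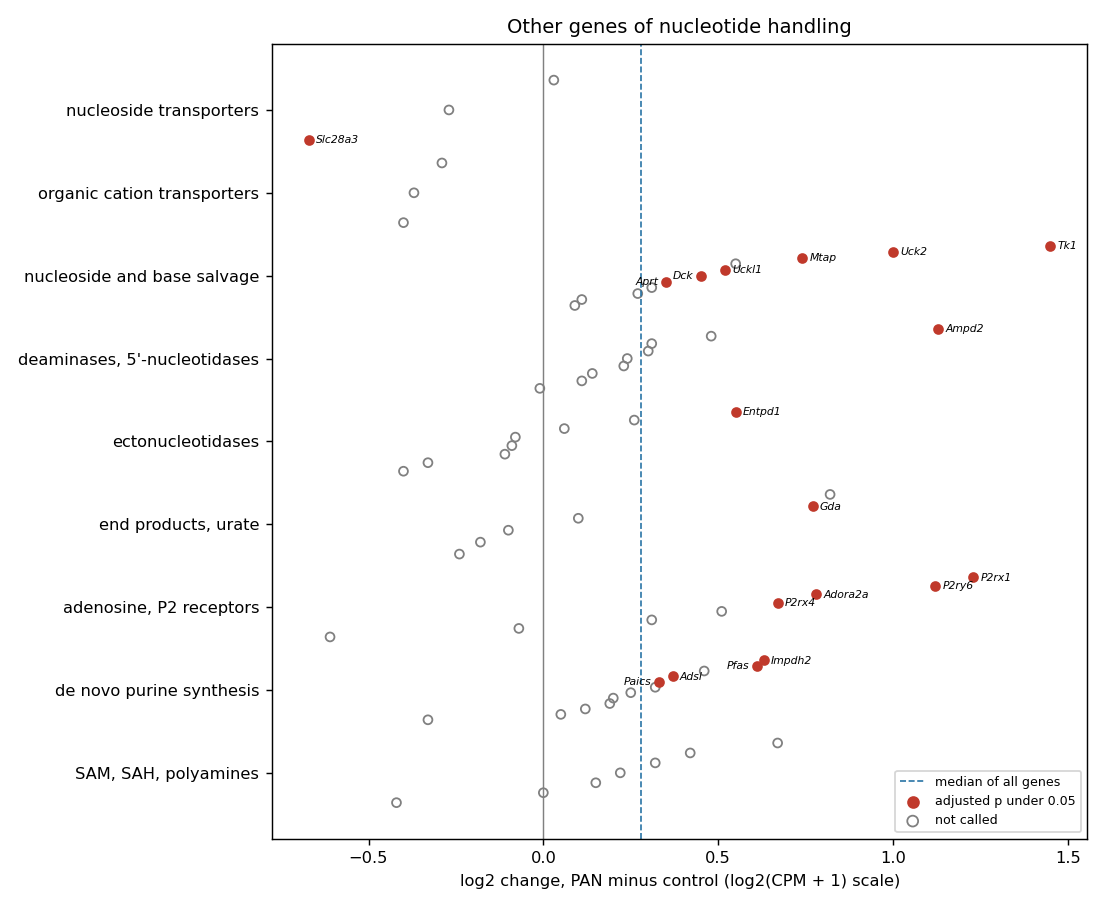
Log2 change of 67 other genes of nucleotide handling in PAN minus control on the log2(CPM + 1) scale, by list, filled where the limma adjusted p was under 0.05. The dashed line is the median of all genes, 0.28, and Tk1 (1.45) and P2rx1 (1.23) lie farthest to its right.

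Against controls, the pioglitazone group had 5 of the 67 that rose and 0 that fell, or 7.46%, where 4.70% of all genes were higher and 0.287% lower. They were P2rx1 (0.95), Tk1 (0.99), Adora2b (0.81), the adenosine A2b receptor, Ampd2 (0.71) and Impdh2 (0.50), with limma adjusted p between 0.011 and 0.0433. This comparison and that of PAN share the 4 control rats. Under median-ratio scaling 3 rose, where 2.22% of all genes did, with the podocyte score as a covariate 1 and with the tubule score 0, and 0 rose without control rats 2 and 3. Leaving out control rat 2 gave 0, control rat 3, pioglitazone rat 2 or pioglitazone rat 4 gave 1, pioglitazone rat 1 gave 3 and control rat 1 gave 9. In pioglitazone and GQ-16 against PAN, GQ-16 against control and GQ-16 against pioglitazone, limma called 0 of the 67, with 4, 10, 12 and 6 at an unadjusted p under 0.05. These are 5.97%, 14.9%, 17.9% and 8.96% of the 67, beside 3.74%, 8.27%, 23.9% and 5.94% of all genes. Leaving out control rat 1 gave 8 higher for GQ-16 against control. For the covariate and leave-out fits of this paragraph the shares of all genes called are not given here.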

How the data were processed

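Poly(A) RNA of sieved glomeruli was sequenced as stranded paired libraries, per the labels' protocols. Per the submitters' processing notes the tools were HISAT2, featureCounts of Subread, and limma, with build Rnor_6.0, without stated versions. The authors deposited log2 values of CPM, made with 0.5 added to each read count and 1 to each total, as its values show. Undoing this gave whole reads for 100% of values (tolerance 0.02). From these, log2(CPM + 1) was fitted with limma 3.58.1 in R 4.3.3 as 4 group means over 16 libraries, with a variance trend, two-sided tests and Benjamini-Hochberg adjustment over 13222 genes; adjusted p under 0.05 was called. Reads carry no molecular identifiers. Intervals are 95% intervals of the fit and cover differences between rats. In at least 8 libraries each gene had 2.04 CPM or more, so a filter on low genes came before the deposit.

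Tests on samples used 100000 permutations. Members and lists were chosen with earlier results of these data known. The genes named are the members, at most 4 called genes of each list and direction with the largest change, the 3 genes most like each member, and the 2 most abundant genes of each marker list where they are named, of which 1 is not reported here; the pathway plot labels every called gene. Of the remaining marker lists, PAN against control gave these counts higher and lower by limma: podocyte 7 and 0 of 18, proximal tubule 0 and 0 of 14, distal and collecting duct 0 and 5 of 8, endothelial 2 and 0 of 9, parietal 0 and 0 of 4, lymphocyte 0 and 0 of 5, fibroblast 1 and 0 of 3, erythroid 0 and 0 of 5, striated muscle 2 and 0 of 3. Beside these counts, 21.7% of all genes were higher and 0.522% lower. Alternatives were other scalings (median-ratio, quantile), pseudocount 0.1, the deposited log2 values, voom with median-ratio scaling, a mean of at least 10 CPM, only the groups compared, covariates and leaving out each rat. Promoter sequences are RefSeq's for GRCr8, a different build from the one in the notes. The planned test of Slc29a4 against the podocyte score was not run, because that gene was not analysed here. The limma script was tested on simulated data.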

Additional observations from a re-analysis of the deposited data

How the results depend on the processing

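No paired analysis was possible because the labels pair no rats across groups and replicate numbers only name them. Over the alternatives other than leaving out 1 rat, 466 single-member differences kept their direction and side of the threshold, 57 turned sign, all without a call in the fit of the report, and 2 gained a call (Xdh, pioglitazone against control). The cause was not tested. Under median-ratio scaling the turned differences were Adk 0.065 in pioglitazone against PAN, Pnp -0.028 in PAN against control and Pnp -0.076, Slc29a1 -0.13 in GQ-16 against control. With median-ratio scaling and the tubule score as a covariate the turned differences were Ada -0.025, Adk 0.25, Nt5e 0.17, Pnp -0.29, Slc29a3 0.25 in PAN against control, Adk 0.24, Pnp -0.26, Slc29a1 -0.27 in GQ-16 against control, Adk -0.0033, Pnp 0.028 in GQ-16 against PAN, Adk -0.19, Nt5e -0.21, Slc29a3 -0.14 in GQ-16 against pioglitazone, Adk 0.44, Nt5e 0.095, Pnp -0.086, Slc29a3 0.11 in pioglitazone against control and Adk 0.19 in pioglitazone against PAN. With the podocyte score as a covariate the turned differences were Ada 0.47 in GQ-16 against control, and Adk 0.038 in pioglitazone against PAN. Under quantile normalization the turned differences were Adk 0.082 in pioglitazone against PAN, Pnp -0.069 in PAN against control, Pnp -0.10, Slc29a1 -0.13 in GQ-16 against control and Xdh 0.0018 in GQ-16 against pioglitazone. Among rats with a title number of 15 or lower the turned differences were Adk -0.028 in GQ-16 against pioglitazone. With the title number as a covariate the turned differences were Adk 0.17, Nt5e 0.08, Slc29a3 0.30 in PAN against control, Adk 0.021, Slc29a1 -0.0081 in GQ-16 against control and Adk -0.14 in GQ-16 against PAN. With the tubule score as a covariate the turned differences were Adk 0.31, Nt5e 0.22, Slc29a3 0.35 in PAN against control, Adk 0.28, Pnp -0.06, Slc29a1 -0.15, Slc29a3 0.033 in GQ-16 against control, Adk -0.023 in GQ-16 against PAN, Adk -0.21, Nt5e -0.24, Slc29a3 -0.18 in GQ-16 against pioglitazone, Adk 0.50, Nt5e 0.16, Slc29a3 0.21 in pioglitazone against control and Adk 0.19 in pioglitazone against PAN. Under voom with median-ratio scaling the turned differences were Adk 0.067 in pioglitazone against PAN, Pnp -0.037 in PAN against control and Pnp -0.062, Slc29a1 -0.12 in GQ-16 against control. Without the 2 control rats of highest mitochondrial share the turned differences were Ada 0.16, Pnp -0.034 in GQ-16 against control.

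Leaving out 1 rat at a time, 312 differences kept direction and side, 23 turned and 1 gained a call. The ranges of those that turned were Ada -0.035 to 0.46 in pioglitazone against PAN, Adk -0.37 to 0.027 in PAN against control, Adk -0.23 to 0.078 in GQ-16 against control, Adk -0.12 to 0.28 in GQ-16 against PAN, Adk -0.041 to 0.30 in GQ-16 against pioglitazone, Adk -0.22 to 0.18 in pioglitazone against PAN, Nt5e -0.36 to 0.029 in GQ-16 against PAN, Nt5e -0.10 to 0.35 in GQ-16 against pioglitazone, Slc29a1 -0.11 to 0.18 in GQ-16 against control, Slc29a1 -0.16 to 0.28 in pioglitazone against PAN, Slc29a3 -0.28 to 0.021 in PAN against control, Slc29a3 -0.025 to 0.34 in GQ-16 against pioglitazone, Xdh -0.19 to 0.069 in GQ-16 against pioglitazone. Members called ranged from 0 to 1 in PAN against control. Of the other genes of nucleotide handling, those higher ranged from 6 to 26 in PAN against control, 0 to 8 in GQ-16 against control and 0 to 9 in pioglitazone against control, and those lower from 0 to 2 in PAN against control and 0 to 1 in GQ-16 against control. The shares of all genes called in these leave-out fits are not given here.

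Counts that moved under the other alternatives were these, given without the share of all genes in each fit. Members called in pioglitazone against control were 1 under median-ratio scaling and 1 under quantile normalization. Genes of nucleotide handling higher in PAN against control were 6 under median-ratio scaling, 6 under quantile normalization, 6 under voom with median-ratio scaling, 8 with only the groups compared, 5 with the podocyte score, 3 with the title number, 3 with median-ratio scaling and the tubule score, and 1 without the 2 control rats; those lower were 0 under each of the last 5 and with a mean of at least 10 CPM. Higher in pioglitazone against control were 3 under median-ratio scaling, quantile normalization, the title number and a mean of at least 10 CPM, 2 under voom with median-ratio scaling, with only the groups compared and among rats with a title number of 15 or lower, 1 with the podocyte score, and 0 with the tubule score, alone or with median-ratio scaling, and without the 2 control rats. In that comparison 1 was lower with only the groups compared. Higher in GQ-16 against control were 1 under median-ratio scaling and 1 among rats with a title number of 15 or lower, and 1 was lower in GQ-16 against PAN with the podocyte score. For these genes the score covariates, voom, the 10 CPM mean and the fit to only the groups compared were chosen after seeing the data. The title number subset, the combined covariate and the 2 left-out rats were chosen so throughout. With 1 PAN rat among those of title number 15 or lower, PAN was not compared within that subset. The alternatives for Slc29a4 were not run. The member with the fewest reads had 211 in its lowest library, so counting error was small beside the spread between rats.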
